A study of Mus musculus with 12 samples.

Results

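The genes named Spata (spermatogenesis associated) and Tex (testis expressed) share a naming habit and not a descent: each name records that a transcript was found in the testis. They encode proteins of meiotic chromosomes, the acrosome, the sperm nucleus, the tail and its mitochondria, and a few proteins that most tissues use. All genes whose symbol begins with Spata or Tex and goes on with a digit were taken, where a probe set of the array carried that symbol and no other. This gave 66 genes, 29 Spata and 37 Tex, of the 19946 measured. Of their 68 probe sets, 2 belong to Spata20 and 2 to Spata48, and the set with the higher mean was used for each.

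The RNA came from whole testes of adult male mice on a mixed background 129/C57BL6. Every animal had its spermatogenesis synchronized, and no untreated group was analysed: neonates were given WIN 18,446, an inhibitor of retinoic acid synthesis, at 100 ug per gram once a day for 7 days (day 2 to day 8 after birth), then 200 ug of retinoic acid on day 9, and recovered for 43 to 49 days. After such treatment most tubules of a testis stand at neighbouring stages of the cycle of the seminiferous epithelium. The 12 samples form 6 stage groups of 2, namely XII-I and II-IV, then IV-VI and VII, then VIII-IX and last IX-XI, assigned from testis morphology. Whether a group's pair of samples came from separate animals is not in the labels, so the p-values cover only how far these samples differ, part of which may be technical. A whole testis holds germ cells and somatic cells together, and fewer cells of a type cannot be told apart from less RNA per cell.

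In the textbook cycle, spermatocytes divide at stage XII, a new cohort of round spermatids begins at stage I and builds its acrosome until stage VIII, spermatozoa are released at stage VIII, and spermatids elongate from stage IX on. Each stage holds several generations of germ cells at once, so the transcripts of early meiosis and of late spermatids can rise in the same sample. Levels below are log2 intensities of the array, and a difference of 1 is a change of 2-fold. They are relative to the other transcripts of the same array, and levels of different genes are not compared.

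The samples did not separate cleanly by group. On the first 2 principal components of all genes, the arrays lay on a ring in the labelled order, except that IX-XI sample 2 came before VIII-IX sample 1 and VIII-IX sample 2 came last, after IX-XI sample 1. The second samples of XII-I and II-IV had a correlation of 0.998 across genes, higher than that of either with its own partner. Summed marker intensities of dividing spermatocytes (8 of 8 genes measured) were 26513 and 26798 in XII-I, against 15700 and 14093 in IX-XI. They were 22572 and 26644 in II-IV, so II-IV sample 2 lay close to XII-I. Those of round spermatids (11 of 11) were 52216 and 48654 in IV-VI, against 26239 and 30402 in XII-I. VII sample 2 stood apart in somatic markers: its summed intensity was 16727 for 5 Leydig cell genes and 4648 for 6 macrophage genes, against 11634 and 2018 on VII sample 1. Of the 9 measured Sertoli cell markers and the 5 Leydig cell markers, all lay above the dimmest 30% of genes, while 1 of 6 epididymal markers did.

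A moderated F test in limma, fitted to all genes with p-values adjusted by the Benjamini-Hochberg method, asked which genes differed among the 6 groups. It called 29 of the 66 Spata and Tex genes (43.9%), where 19.9% of all genes were called. Only 4 of the 66 lay among the dimmest 30% of genes, so shares of all genes include more dim genes. With the dimmest 30% left out, 31 of 62 were called, where 29.6% of the genes kept were. Of the 66, 22 both passed and ranged at least 2-fold between their highest and lowest group means, as did 7.5% of all genes. The median range was 0.61 log2 over the 66 genes, against 0.34 log2 over all genes. Adjusted p-values given with a range below are those of the F test over all 6 groups, and no single pair of groups was tested. The range was 3.24 log2 in Spata31d1c, the widest, and 0.09 log2 in Spata20, the narrowest. The count of 29 depended on single arrays. It was 11 and 9 without IV-VI samples 1 and 2, 14 and 10 without VII samples 1 and 2, 9 and 8 without VIII-IX samples 1 and 2, and 8 and 9 without IX-XI samples 1 and 2, and over these settings between 7.63% and 16.4% of all genes were called. It was 0 when the second samples of VIII-IX and IX-XI were both left out, with 0.0953% of all genes called. Spata31d1a, Spata32, Tex10, Tex13c3 and Tex33 passed whichever single array was left out.

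**Figure D1:**
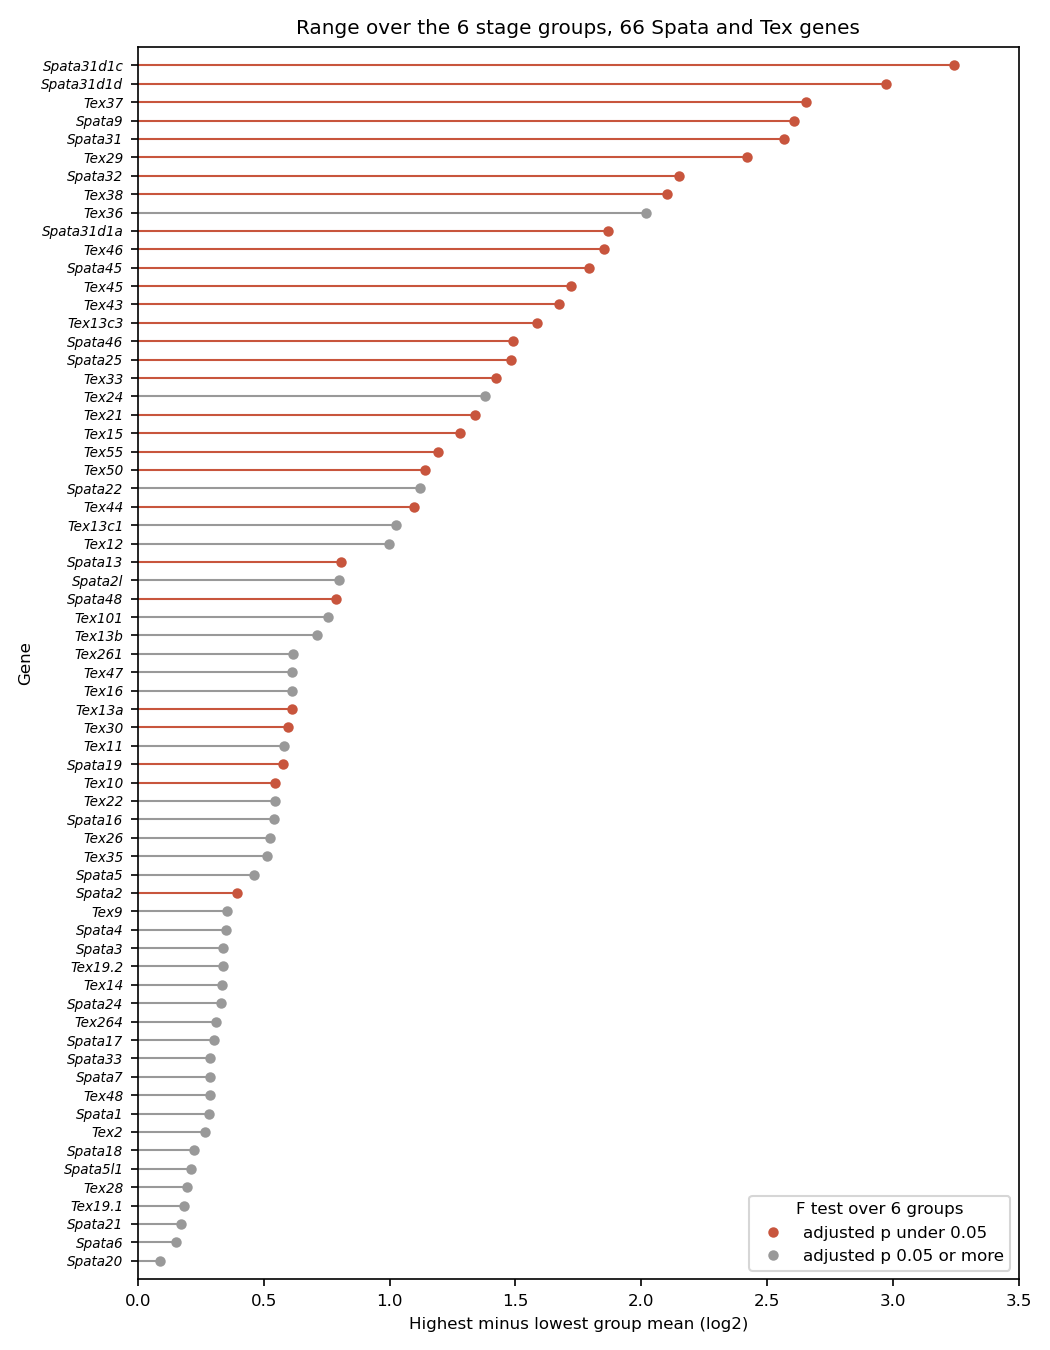
Range over the 6 stage groups (highest minus lowest group mean, log2) of the 66 Spata and Tex genes, 1 line per gene, in red where limma's F test gave an adjusted p under 0.05. The range runs from 3.24 log2 in Spata31d1c to 0.09 in Spata20, and Tex36, at 2.02, is the widest gene that did not pass.

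By the group of their highest mean alone, the 29 genes were sorted into 2 main patterns. In 15 of them the highest mean lay in VIII-IX (12 genes) or IX-XI (3 genes), and 11 of these 15 were lowest in II-IV or IV-VI. In 11 others it lay in IV-VI (5) or VII (6), and 8 of these were lowest in XII-I and 3 in VIII-IX. Tex10 and Spata2 were highest in XII-I and Tex13a in II-IV. This sorting can rest on small gaps between means. Tex33 averaged 11.89 in VII and 11.94 in IX-XI, and Spata25 averaged 11.01 in VII and 10.86 in IX-XI. Against the mean of the other 5 groups, no gene was called higher in IV-VI or in VII. Of all 3973 genes past the test, 20.4% were highest in VIII-IX, 12.6% in IX-XI, 16.6% in IV-VI, 5.46% in VII, 31.9% in XII-I and 13.1% in II-IV. The largest rise between successive groups came from VII to VIII-IX in 11 of the 29 genes (30.7% of all genes past the test) and from XII-I to II-IV in 9 (12.7%), and the largest fall came from IX-XI to XII-I in 15 (25% of all genes past the test). Over all 66 genes, passing or not, 28.8% were highest in VIII-IX, against 14% of all genes, and 36.4% were lowest in XII-I, against 16.1%.

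**Figure D2:**
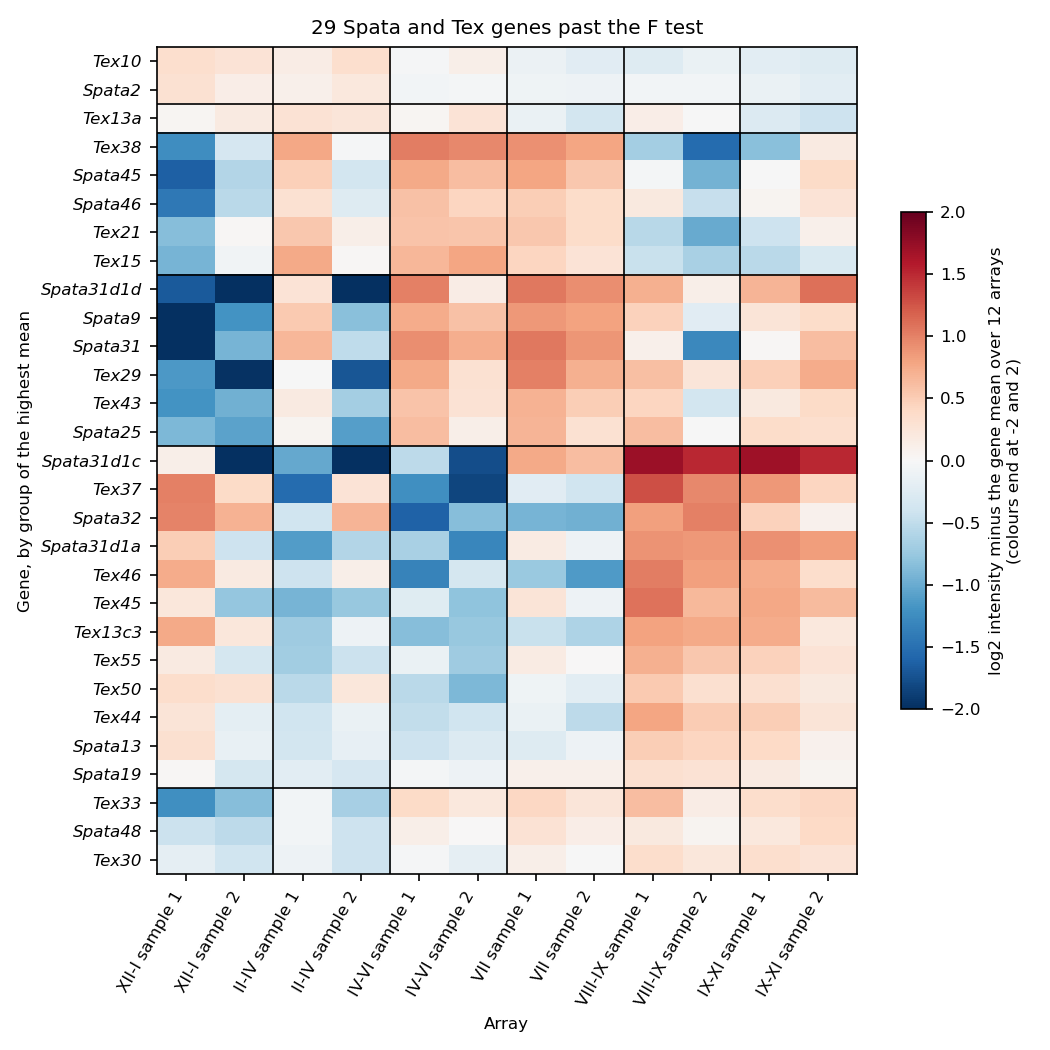
Log2 intensity minus the gene's mean over the 12 arrays (colour, from -2 in blue to 2 in red) for the 29 Spata and Tex genes past the F test, 1 row per gene, arrays in stage order with lines between groups. The genes from Tex38 to Spata25 are mostly blue in XII-I and red in IV-VI and VII, those from Spata31d1c to Spata19 are red in VIII-IX and IX-XI, and II-IV sample 2 mostly has the colours of XII-I sample 2.

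**Figure D3:**
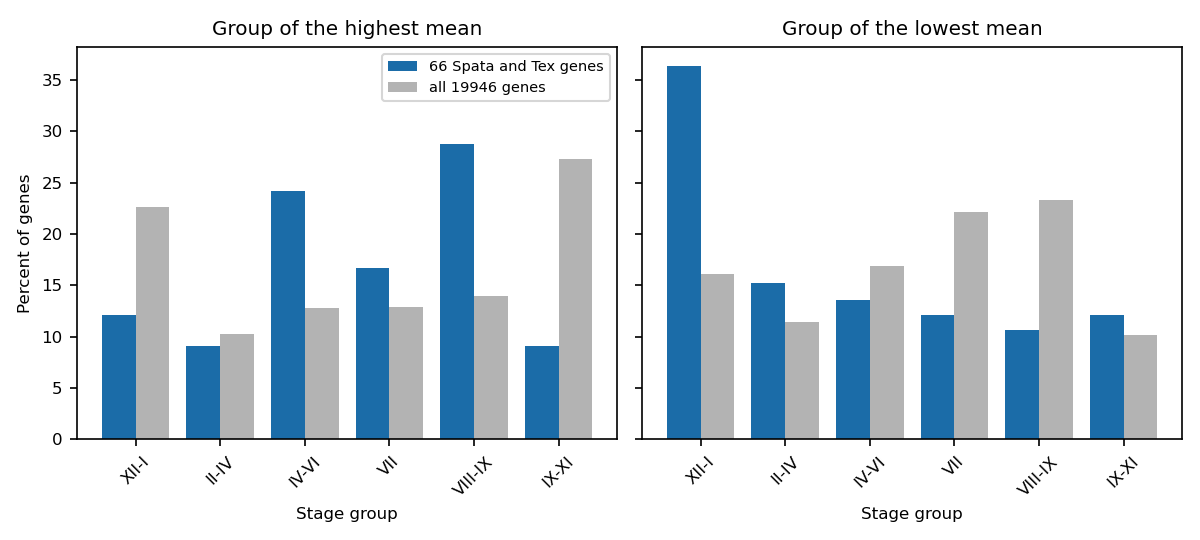
Percent of genes whose highest (left) and lowest (right) group mean lay in each stage group, for the 66 Spata and Tex genes (blue) and all 19946 genes (grey), passing a test or not. The blue bars stand highest at VIII-IX for the highest mean, at 28.8%, and at XII-I for the lowest, at 36.4%.

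The Spata31 family showed both patterns. The 4 measured genes, Spata31, Spata31d1d, Spata31d1a and Spata31d1c, lie on chromosome 13 in the RefSeq annotation of GRCm38.p6, with Spata31 and Spata31d1c directly beside each other among coding genes and Spata31d1a and Spata31d1d separated by 1 other. They are shown here because neighbours of the same named family differed in their course. The lines below give a stretch of 60 bases upstream of each start in RefSeq's GRCm38.p6, and capitals mark the 18 bases identical in all 4. They were chosen as the stretch of Spata31d1d and its best ungapped matches in the 3 other promoters that share the most bases. Counted from the start, they run from -89 to -30 in Spata31 and -117 to -58 in Spata31d1d. Those of Spata31d1a and Spata31d1c run from -110 to -51 and from -129 to -70. The stretches are chr13:64917317-64917376 (plus strand) for Spata31, chr13:59731810-59731869 (minus strand) for Spata31d1d, chr13:59706248-59706307 (minus strand) for Spata31d1a and chr13:65032929-65032988 (plus strand) for Spata31d1c.
Spata31: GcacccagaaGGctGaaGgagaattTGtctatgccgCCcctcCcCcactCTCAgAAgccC
Spata31d1d: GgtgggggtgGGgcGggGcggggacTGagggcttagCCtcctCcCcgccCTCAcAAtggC
Spata31d1a: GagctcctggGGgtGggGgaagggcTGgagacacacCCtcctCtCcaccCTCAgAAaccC
Spata31d1c: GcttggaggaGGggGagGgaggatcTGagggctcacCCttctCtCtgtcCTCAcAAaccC
Pairs of these stretches were identical at 25 (Spata31 and Spata31d1d) to 40 bases (Spata31d1d and Spata31d1c). The stretches were chosen for the most shared bases, so these counts do not measure how alike the promoters are. Unrelated promoters were not compared. Probe sets of genes in such a family can read more than 1 copy.

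Spata31 (probe set 10405838) measured 8.69 and 10.03 in XII-I, 11.62 and 10.45 in II-IV, 11.90 and 11.68 in IV-VI, 12.01 and 11.85 in VII, 11.07 and 9.67 in VIII-IX and 10.99 and 11.57 in IX-XI. It was highest on both arrays of IV-VI and VII and lowest on XII-I sample 1, and its range of 5.93-fold had an adjusted p of 0.049 in limma's F test. Spata31d1d (probe set 10409790) measured 8.81 and 8.22 in XII-I, 10.77 and 8.44 in II-IV, 11.50 and 10.64 in IV-VI, 11.55 and 11.42 in VII, 11.20 and 10.61 in VIII-IX and 11.17 and 11.59 in IX-XI. Both arrays of XII-I and II-IV sample 2 were low and the other 9 arrays lay at 10.61 or above (range 7.84-fold, adjusted p = 0.037 in limma). Its F call held in 2 of 12 leave-outs and that of Spata31 in 3. Spata31d1a (probe set 10409786) followed the other course, with 11.18 and 10.29 in XII-I, 9.57 and 10.12 in II-IV, 10.04 and 9.39 in IV-VI, 10.85 and 10.60 in VII, 11.60 and 11.57 in VIII-IX and 11.61 and 11.52 in IX-XI. The 4 arrays of VIII-IX and IX-XI lay above the 8 others, and the range was 3.65-fold (adjusted p = 0.015 in limma). Spata31d1c (probe set 10405842), which had the widest range of all 66 genes, measured 10.70 and 8.25 in XII-I, 9.56 and 8.34 in II-IV, 10.07 and 8.81 in IV-VI, 11.34 and 11.20 in VII, 12.30 and 12.09 in VIII-IX and 12.28 and 12.10 in IX-XI. It too was higher on the 4 arrays of VIII-IX and IX-XI than on any other, with VII next. Its mean of 12.20 ± 0.15 in VIII-IX (SD, n = 2) was 9.47-fold that of 8.95 ± 0.86 in II-IV. The adjusted p was 0.028 in limma's F test over the 6 groups, and the call held in 6 of 12 leave-outs. Its XII-I arrays lay far apart, at 10.70 and 8.25. The difference between the courses of the 4 genes was not itself tested.

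**Figure D4:**
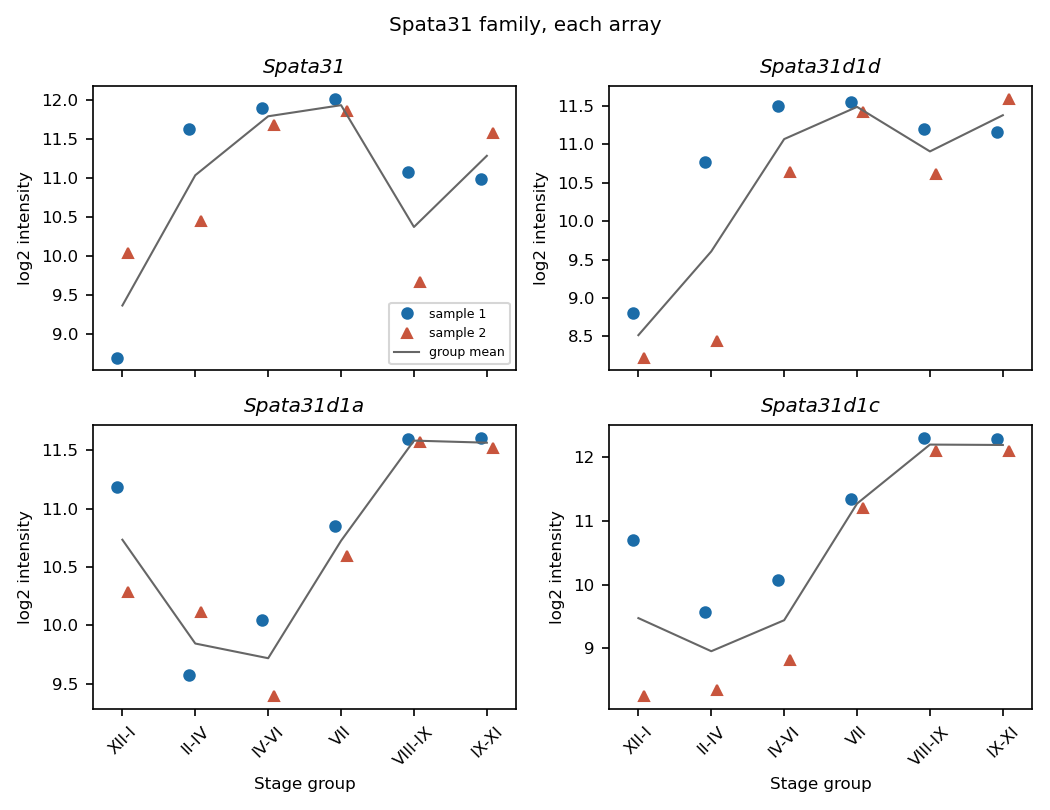
Log2 intensity of Spata31, Spata31d1d, Spata31d1a and Spata31d1c on each array (circles sample 1, triangles sample 2) across the 6 stage groups, with a line through the group means. The upper pair is highest in VII and lowest in XII-I, and the lower pair is highest in VIII-IX and IX-XI. The vertical scales differ.

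The 11 genes highest in IV-VI or VII included Spata46 and Tex38, which have parts in the sperm head, though Tex38 is counted below in the tail list. Spata32, associated with the acrosome, went the other way and was lowest in IV-VI. Spata46, a protein of the nuclear envelope under the acrosome, averaged 10.52 ± 0.11 in IV-VI, against 9.03 ± 0.63 in XII-I (SD, n = 2 each). This range of 2.81-fold had an adjusted p of 0.0484 in limma's F test over the 6 groups. Tex38, a partner of the palmitoyl transferase ZDHHC19 that spermatids need to shape the sperm head, measured 10.05 and 10.95 in XII-I, 12.06 and 11.27 in II-IV, 12.32 and 12.25 in IV-VI, 12.21 and 12.09 in VII, 10.62 and 9.75 in VIII-IX and 10.46 and 11.47 in IX-XI. Both arrays of IV-VI and VII lay above the 8 others, VIII-IX sample 2 and XII-I sample 1 were the lowest, and the range was 4.29-fold (adjusted p = 0.029 in limma, held in 7 of 12 leave-outs). Spata9 (probe set 10406280) measured 8.04 and 9.18 in XII-I, 10.91 and 9.54 in II-IV, 11.12 and 10.97 in IV-VI, 11.25 and 11.19 in VII, 10.84 and 10.15 in VIII-IX and 10.63 and 10.74 in IX-XI. Both XII-I arrays lay below the 10 others, and the range of 6.09-fold had an adjusted p of 0.028 in limma. Tex29 (probe set 10570168) measured 9.99 and 9.17 in XII-I, 11.14 and 9.43 in II-IV, 11.90 and 11.44 in IV-VI, 12.15 and 11.85 in VII, 11.75 and 11.39 in VIII-IX and 11.62 and 11.88 in IX-XI, so that the 2 XII-I arrays and II-IV sample 2 were the lowest (range 5.36-fold, adjusted p = 0.029 in limma). Spata45 (probe set 10352705) measured 8.50 and 9.55 in XII-I, 10.61 and 9.77 in II-IV, 10.89 and 10.75 in IV-VI, 10.93 and 10.67 in VII, 10.10 and 9.19 in VIII-IX and 10.12 and 10.52 in IX-XI. Its XII-I arrays spanned 8.50 to 9.55 and overlapped VIII-IX sample 2 (range 3.46-fold, adjusted p = 0.0498 in limma). The calls of Spata9, Tex29, Spata45 and Spata46 each held in 3 of 12 leave-outs. Tex43 (range 3.19-fold), Spata25 (2.79-fold) and Tex21 (2.53-fold) were also highest in IV-VI or VII, with adjusted p of 0.03, 0.0496 and 0.039 in limma. Tex36 ranged 4.06-fold and Tex24 2.6-fold, both with their highest mean in IV-VI and their lowest in XII-I, and did not pass (adjusted p = 0.061 and 0.17 in limma).

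The marker list of round spermatids moved with this group: 4 of its 11 genes passed the F test, all 4 highest in IV-VI, and its summed intensity was 26239 and 30402 in XII-I, 45894 and 32132 in II-IV, 52216 and 48654 in IV-VI, 52670 and 48149 in VII, 39909 and 31795 in VIII-IX and 39350 and 46308 in IX-XI. Spaca3, Spaca7 and Sun5, named below in other lists, are among the 4 that passed. The part of round spermatids in the result was not tested.

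Genes highest in VIII-IX were led, after Spata31d1c, by Tex37. Tex37 (probe set 10545266) measured 11.75 and 11.12 in XII-I, 9.19 and 11.02 in II-IV, 9.52 and 8.90 in IV-VI, 10.52 and 10.34 in VII, 12.03 and 11.70 in VIII-IX and 11.60 and 11.17 in IX-XI. VIII-IX sample 1 was the highest array, followed by XII-I sample 1 and VIII-IX sample 2, and IV-VI sample 2 the lowest, II-IV sample 1 lay near IV-VI and II-IV sample 2 near XII-I, and the range of 6.29-fold had an adjusted p of 0.03 in limma (held in 5 of 12 leave-outs). Spata32, a protein associated with the acrosome, measured 11.34 and 11.04 in XII-I, 9.94 and 11.02 in II-IV, 8.72 and 9.48 in IV-VI, 9.41 and 9.38 in VII, 11.16 and 11.34 in VIII-IX and 10.80 and 10.43 in IX-XI. The 4 arrays of IV-VI and VII lay below the 8 others. Spata32 averaged 11.25 ± 0.13 in VIII-IX, against 9.10 ± 0.54 in IV-VI (SD, n = 2 each). This range of 4.43-fold had an adjusted p of 0.015 in limma's F test over the 6 groups. Tex46 (probe set 10509253) measured 10.90 and 10.34 in XII-I, 9.74 and 10.27 in II-IV, 8.82 and 9.81 in IV-VI, 9.42 and 9.03 in VII, 11.17 and 10.97 in VIII-IX and 10.90 and 10.51 in IX-XI. Both VIII-IX arrays were above all others, with XII-I sample 1 and IX-XI sample 1 close below (range 3.61-fold, adjusted p = 0.021 in limma, held in 9 of 12 leave-outs). Tex45 (probe set 10569757) measured 10.46 and 9.46 in XII-I, 9.30 and 9.47 in II-IV, 9.99 and 9.43 in IV-VI, 10.48 and 10.14 in VII, 11.32 and 10.88 in VIII-IX and 11.00 and 10.86 in IX-XI. The 4 arrays of VIII-IX and IX-XI lay above the 8 others (range 3.29-fold, adjusted p = 0.024 in limma, held in 8 of 12). Smaller ranges with the highest mean in VIII-IX were those of Tex13c3 (3-fold, adjusted p = 0.014 in limma), Tex55 (2.29-fold), Tex50 (2.2-fold), Tex44 (2.14-fold) and Spata19 (1.49-fold), a mitochondrial protein that joins the mitochondria to the midpiece of the tail. The summed intensity of 10 elongating spermatid markers was 93671 and 91322 in VIII-IX and between 68369 and 86768 on the arrays of the 5 other groups. Of the 10, only Tnp1 and Tnp2 passed the F test, where 19.9% of all genes did, and the median range was 0.22 log2. In VIII-IX 0 of them were called higher, where 3.53% of all genes were. The part of these cells in the result was not tested.

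**Figure D5:**
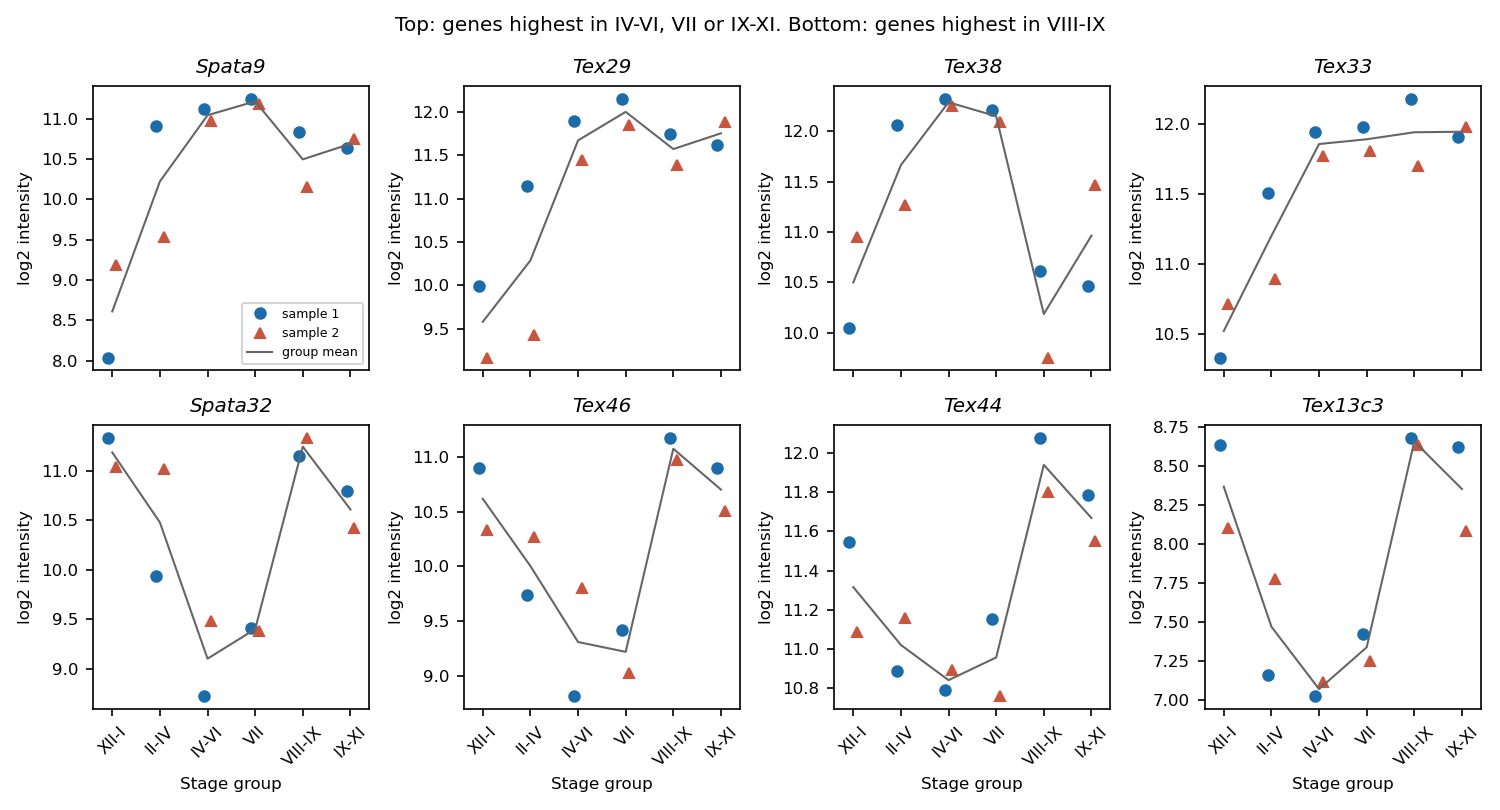
Log2 intensity on each array (circles sample 1, triangles sample 2) and group means (line) of Spata9, Tex29, Tex38 and Tex33 (top) and Spata32, Tex46, Tex44 and Tex13c3 (bottom) across the 6 stage groups. The upper genes have group means at or near their highest in IV-VI and VII, the lower genes have their lowest means there and their highest in VIII-IX, and in II-IV the 2 arrays lie far apart in most panels. The vertical scales differ.

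Tex33, Spata48 and Tex30 were highest in IX-XI. Tex33 measured 10.33 and 10.71 in XII-I, 11.51 and 10.89 in II-IV, 11.94 and 11.77 in IV-VI, 11.98 and 11.80 in VII, 12.18 and 11.70 in VIII-IX and 11.91 and 11.98 in IX-XI. The XII-I arrays lay below the 10 others, II-IV sample 2 was next, and all arrays from IV-VI on lay between 11.70 and 12.18 (range 2.68-fold, adjusted p = 0.015 in limma). The promoter of Tex33 is shown because it held a long match to the site of RFX factors, which act on genes of cilia and spermatids. The motif GTTGCCATG, searched on both strands, stood in 0.773% of 32851 promoters of 300 bases and in 2 of the 69 that belong to the 57 Spata and Tex genes in the table, those of Tex33 and Spata33. The stretch at chr15:78395918-78395976 (minus strand) in RefSeq's GRCm38.p6 has the match, on the opposite strand, in capitals.
Tex33: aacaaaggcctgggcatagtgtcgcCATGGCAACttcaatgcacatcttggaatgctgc
The shorter GTTGCC stood in 12 of the 69 promoters of these 57 genes (10 genes) and in 12.5% of all promoters, and overlaps the longer motif. The cAMP response element TGACGTCA stood in 1 of the 69 (Spata7) and in 1.79% of all promoters, and its core TGACG, which overlaps it, in 16 of the 69 (14 genes) and in 20.8%. Of the 25 genes past the F test that have a promoter in the table, 5 held TGACG (Spata2, Spata32, Spata48, Tex30 and Tex50) and 4 held GTTGCC (Spata31d1a, Spata45, Tex33 and Tex37).

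Spata48 rested on the choice of probe set. Its brighter probe set 10374327 ranged 0.79 log2 and was highest in IX-XI, while its other set, 10374325, ranged 1.98 log2, with its highest mean in IV-VI, at 9.95, and its lowest in VIII-IX, at 7.96. With the mean of both sets the adjusted p in limma's F test was 0.057, against 0.023 with the brighter set. For Spata20, the brighter set ranged 0.09 log2 and the dimmer 0.73 log2, and the gene, taken by its brighter set, did not pass.

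Each group was also set against the mean of the other 5. Of the 66 genes, 13 fell in XII-I (19.7%, where 3.33% of all genes were called lower) and 6 rose (9.09%, where 7.51% were called higher). The difference was -2.37 ± 0.48 log2 in Spata31d1d (SE, 2 arrays against 10, adjusted p = 0.024 in limma), -2.12 ± 0.35 in Spata9, -1.92 ± 0.43 in Spata31, -1.88 ± 0.37 in Tex29 and -1.33 ± 0.31 in Spata45. In 8 genes both XII-I arrays lay below all 10 others, which held for 2.59% of all genes, and in 3 (Spata16, Spata5 and Tex22) above them, which held for 6.42%. Spata22 and Tex12, both of meiotic chromosomes, were among the 8, with differences of -0.81 ± 0.21 and -0.75 ± 0.16 (adjusted p = 0.04 and 0.027 in limma). Tex101, a surface protein that sperm need for ADAM3 maturation, fell, with a difference of -0.50 ± 0.13 (adjusted p = 0.043 in limma). The genes that rose in XII-I did so by little, apart from Spata32, at 1.02 ± 0.26. Tex261 was higher by 0.43 ± 0.11, Tex10 by 0.37 ± 0.08, Spata16 by 0.36 ± 0.10 and Spata5 by 0.32 ± 0.08, with adjusted p in limma of 0.037, 0.024, 0.0452 and 0.041. Spata16 is a Golgi and acrosome protein whose loss in humans gives sperm without acrosomes. The count of 13 became 0 when XII-I sample 1 was left out (0% of all genes), 7 for XII-I sample 2 (0.391%), 20 for II-IV sample 2 (6.42%), 7 for IV-VI sample 1 (0.958%) and 5 for IX-XI sample 2 (0.727%). The count of 6 became 0 for XII-I sample 1 (0% of all genes), XII-I sample 2 (1.82%) or IX-XI sample 2 (2.5%), 3 for II-IV sample 1 (6.36%) and 2 for IV-VI sample 2 (5.77%). It became 1 for IV-VI sample 1 (2.8%), VII sample 1 (5.18%), VII sample 2 (5.63%) or VIII-IX sample 1 (3.64%). Both were 0 when the second samples of VIII-IX and IX-XI were both left out.

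In VIII-IX, 10 of the 66 genes rose (15.2%, where 3.53% of all genes were called higher) and 2 fell (3.03%, where 4.31% were called lower). Tex46 was higher by 1.10 ± 0.26 log2 (SE, 2 arrays against 10, adjusted p = 0.036 in limma), Spata32 by 1.09 ± 0.26, Spata31d1a by 1.07 ± 0.24, Tex45 by 1.05 ± 0.24 and Tex13c3 by 0.94 ± 0.19. Tex44, Tex55, Spata13, Spata19 and Spata4 rose by 0.78 to 0.27 log2. Both VIII-IX arrays lay above all 10 others in 11 genes, which held for 2.55% of all genes. The genes that fell were Tex38, at -1.33 ± 0.33, and Tex21, at -0.93 ± 0.22 (adjusted p = 0.043 and 0.039 in limma). In IX-XI, Spata31d1a rose, by 1.05 ± 0.24 (adjusted p = 0.046 in limma), and the X-linked Tex13a fell, with a difference of -0.42 ± 0.09 (adjusted p = 0.044 in limma), where 1.9% and 1.79% of all genes were called. No Spata or Tex gene was called in II-IV, IV-VI or VII (0 of 66 in limma, with 0% of all genes called), although some had an unadjusted p under 0.05. In II-IV, 3 were higher and 15 lower by that measure (9.13% and 8.07% of all genes), in IV-VI 11 and 13 (9.89% and 10.5%) and in VII 13 and 12 (7.68% and 12.2%).

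The count of 10 in VIII-IX became 0 when its own sample 1 (0% of all genes) or sample 2 (0.727%) was left out. It became 6 for IV-VI sample 1 (2.36%), IV-VI sample 2 (1.59%) or VII sample 1 (2.5%), 3 for VII sample 2 (2.31%) and 2 for IX-XI sample 2 (1.32%). The 2 lower calls there became 0 when any array of IV-VI, VII or VIII-IX was left out, and likewise for II-IV sample 1 and IX-XI sample 2, with 0% to 3.76% of all genes called. The higher call in IX-XI, 1 gene, became 3 for XII-I sample 1 (3.42%) or II-IV sample 1 (1.91%), 2 for XII-I sample 2 (2.02%) or II-IV sample 2 (1.98%), and 0 for IV-VI sample 2 or any array of the 3 later groups (0% to 1.79%). The lower call in IX-XI was kept when XII-I sample 1 (2.92%), IV-VI sample 1 (1.56%) or VII sample 2 (1.39%) was left out, and became 0 for each of the 9 other arrays (0% to 2.16%).

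By role, 1 of the 7 genes of meiosis and of the bridges between germ cells passed the F test, where 19.9% of all genes did. No role or partner list was tested against that share. Tex15, which acts in recombination and in the silencing of transposons, measured 9.21 and 10.07 in XII-I, 10.90 and 10.17 in II-IV, 10.81 and 10.94 in IV-VI, 10.58 and 10.43 in VII, 9.70 and 9.49 in VIII-IX and 9.61 and 9.84 in IX-XI. It was highest in II-IV sample 1 and IV-VI and lowest on XII-I sample 1. Tex15 averaged 10.88 ± 0.09 in IV-VI, against 9.60 ± 0.15 in VIII-IX (SD, n = 2 each). This range of 2.43-fold had an adjusted p of 0.034 in limma's F test over the 6 groups. Spata22, which binds single-stranded DNA together with MEIOB, ranged 1.12 log2 with its highest mean in VII (adjusted p = 0.076 in limma), and Tex12, of the central element of the synaptonemal complex, 1.00 (adjusted p = 0.06). Tex11, an X-linked gene of crossover formation, ranged 0.58 (adjusted p = 0.27), Tex14, needed for the intercellular bridges, 0.33 (0.29), and the transposon control genes Tex19.2 and Tex19.1, which lie beside each other and can share probes, 0.34 (0.23) and 0.18 (0.71).

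Genes of the same processes outside the Spata and Tex names are given beside them, and no difference in course between them and the Spata and Tex genes was tested. For the counts in these lists, 19.9% of all genes passed the F test. Of 8 measured strand exchange genes, 3 passed the F test. Meiob, the partner of Spata22, was 2.8-fold higher in II-IV than in VII (adjusted p = 0.022 in limma's F test over the 6 groups). Rpa1 ranged 2.66-fold with its highest mean in XII-I, and Dmc1 2.45-fold with its highest in VIII-IX. Of 7 crossover genes measured, Ccnb1ip1 (2.68-fold, highest in IV-VI) and Shoc1 (1.49-fold, highest in VIII-IX) passed. Of 7 synaptonemal complex genes, Hormad2 (1.86-fold, highest in IV-VI) did, and of 12 transposon silencing genes, Piwil2, Uhrf1 and Mov10l1. Of 10 genes of the midbody, from which intercellular bridges form, 6 passed and all 6 were highest in XII-I, led by Plk1 (3.63-fold above IX-XI), Aurkb (3.23-fold above VII), Incenp (2.89-fold above IX-XI) and Kif23 (2.59-fold above IX-XI). Tex14, which did not pass, also had its highest mean in XII-I, at 10.67, and its lowest in VII, at 10.34. Of the 8 dividing spermatocyte markers, Plk1 among them, 7 passed, 5 of them highest in XII-I, and the part of these cells in the result was not tested.

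Among the 7 genes of the acrosome, the sperm head and the surface, Spata31, Spata32 and Spata46 passed the F test. Of all genes, 19.9% passed it. Spata16 ranged 0.54 log2 (adjusted p = 0.065 in limma), Tex101 0.75 (0.0549), Tex22 0.54 (0.14) and Spata1 0.28 (0.16). Of 13 acrosome genes set beside Spata16, 5 passed, 3 of them highest in IV-VI and 2 in XII-I. Those with the widest range were Spaca4 (3.43-fold), Spaca3 (3.11-fold) and Spaca7 (1.73-fold), highest in IV-VI, and Dpy19l2 (1.68-fold), highest in XII-I. Spaca3 and Spaca7 were already counted above as round spermatid markers. Of 15 genes of sperm surface maturation set beside Tex101, 3 passed, namely Calr3 (5.2-fold, highest in IX-XI), Pdilt (3.67-fold, highest in VII) and Adam1b (2.84-fold, highest in XII-I).

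Of 6 genes listed under the tail, the mitochondrial sheath and the connecting piece, 2 passed, where 19.9% of all genes did. These were Spata19 and Tex38, which is described above by its part in shaping the head. Spata6, which builds the connecting piece between head and tail, ranged 0.15 log2 (adjusted p = 0.74 in limma), Spata18, of mitochondrial quality control, 0.22 (0.5), Spata33, which holds calcineurin at the sperm mitochondria, 0.29 (0.19), and Spata17 0.30 (0.11). Spata19 measured 12.63 and 12.26 in XII-I, 12.40 and 12.28 in II-IV, 12.57 and 12.50 in IV-VI, 12.71 and 12.71 in VII, 12.93 and 12.90 in VIII-IX and 12.79 and 12.67 in IX-XI, and both VIII-IX arrays lay above all others by a small margin (adjusted p = 0.0461 in limma). Of 9 mitochondrial sheath genes set beside it, Ppp3r2 (2.36-fold) and Klc3 (2.23-fold) passed with their highest mean in VIII-IX and Kif5c (1.72-fold) in IX-XI, each lowest in IV-VI. Of 10 connecting piece genes, Sun5 (4-fold, highest in IV-VI) and Ccdc42 (1.43-fold, highest in XII-I) passed. Sun5 was already counted above as a round spermatid marker.

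The 12 genes listed as widely expressed, with roles outside germ cells, had small ranges, with a median of 0.36 log2, close to the 0.34 of all genes. For some of them, Spata20 and Spata24 among these, no such role is given here. Of the 12, 3 passed the F test, where 19.9% of all genes did. Spata13, an exchange factor for small GTPases, measured 7.73 and 7.27 in XII-I, 7.04 and 7.24 in II-IV, 7.00 and 7.13 in IV-VI, 7.16 and 7.31 in VII, 7.90 and 7.84 in VIII-IX and 7.81 and 7.50 in IX-XI. Both VIII-IX arrays were above all others, IX-XI sample 1 and XII-I sample 1 came next, and the range was 1.75-fold (adjusted p = 0.034 in limma). Spata13 is among the dimmest 30% of genes, as are Tex13b, Tex28 and Tex19.1, which did not pass. Tex10, which takes part in ribosomal RNA processing, averaged 11.89 ± 0.05 in XII-I, against 11.34 ± 0.04 in IX-XI (SD, n = 2 each). This range of 1.46-fold had an adjusted p of 0.019 in limma's F test over the 6 groups. The 4 arrays of XII-I and II-IV lay above the 8 others for Tex10. Spata2, which joins the deubiquitinase CYLD to the linear ubiquitin ligase complex, was 1.31-fold higher in XII-I than in IX-XI. Its adjusted p was 0.0485 in limma's F test over the 6 groups, and the call held in 1 of 12 leave-outs. Cyld, of 6 such genes measured the one that passed, was 2.1-fold higher in VIII-IX than in IV-VI. The other 9 did not pass: Spata2l (0.80 log2), Tex261 (0.61), Spata5 (0.46), an ATPase of ribosome maturation, Spata24 (0.33), Tex264 (0.31), a receptor for autophagy of the endoplasmic reticulum, Spata7 (0.29), of the photoreceptor cilium, Tex2 (0.27), of lipid transfer, Spata5l1 (0.21) and Spata20 (0.09).

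Of the 7 X-linked genes, Tex13c3 and Tex13a passed the F test, where 19.9% of all genes did. Tex13c3 measured 8.63 and 8.10 in XII-I, 7.16 and 7.78 in II-IV, 7.02 and 7.12 in IV-VI, 7.42 and 7.25 in VII, 8.68 and 8.63 in VIII-IX and 8.62 and 8.08 in IX-XI, high in VIII-IX, XII-I sample 1 and IX-XI sample 1 and low in II-IV sample 1, IV-VI and VII. Its relative Tex13c1, whose probe set may read other copies of the family, ranged 1.03 log2 (adjusted p = 0.11 in limma), Tex13b 0.71 (0.18), Tex16 0.61 (0.11), Tex11 0.58 and Tex28 0.20 (0.54). Tex13a ranged 0.61 log2, with its highest mean in II-IV and its lowest in IX-XI (adjusted p = 0.03 in limma).

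In all, 37 of the 66 genes did not pass the F test, with ranges of 0.09 to 2.02 log2 and adjusted p from 0.0549 to 0.95 in limma. Those whose range is not given above were Tex47 (0.61 log2), Tex26 (0.52 log2), Tex35 (0.51 log2), Tex9 (0.35 log2), Spata4 (0.35 log2), Spata3 (0.34 log2), Tex48 (0.28 log2) and Spata21 (0.17). Spata4, with an adjusted p of 0.088 in the F test, rose in VIII-IX by 0.27 ± 0.06 (SE; adjusted p = 0.037 in limma). Its 2 VIII-IX arrays, at 12.98 and 12.95, lay above the 10 others, which ran from 12.60 to 12.79. A range that did not pass does not show that a gene was constant over the cycle.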

How the data were processed

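Affymetrix Mouse Gene 1.0 ST arrays were read for 12 testis samples, and the submitters' processing notes name RMA, which corrects background, equalizes distributions and summarizes probes. Neither a version nor a genome build is given in the sources used here. The intensity values the authors deposited, 1 table for all samples, were linear, from 24.97 to 21760, with array medians of 296.9 to 309.1, and were taken to log2 with nothing added. RMA equalizes the arrays, so a change in total RNA cannot be seen.

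Per the labels' protocols, 100 ng of RNA was amplified and 3.75 ug of cDNA was labelled with biotin. Of 28853 probe sets, 21797 had 1 symbol, 1613 several and 5443 were not listed in the array's annotation, and 19946 genes remained with the brightest probe set of each. Matching by Entrez ID to the RefSeq table of GRCm38.p6 changed 0 symbols. Promoters came from the same RefSeq build, with 57 of the 66 genes matched.

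limma 3.58.1 in R 4.3.3 fitted 6 group means to all 12 arrays (6 residual degrees of freedom), with a moderated F test and each group set against the other 5 groups' mean, at a Benjamini-Hochberg adjusted p under 0.05 over all genes. The number of arrays limits the precision. Alternatives were repeated quantile normalization, a filter on the dimmest 30% of genes, a replicate block, array quality weights, the mean of probe sets, each array left out, 2 arrays left out together, and VIII-IX merged with IX-XI.

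The genes and lists were chosen with earlier results of these data known. Values on every array are given for the 12 genes past the F test with the widest range and the widest of each role list, and for Tex33, Spata19 and Tex13c3, chosen after their values were seen. For each contrast, up to 5 genes in each direction are named by the largest difference, and any other gene may be named with its value. Of each partner list, up to 4 genes past the F test with the widest range are named.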

Additional observations from a re-analysis of the deposited data

How the results depend on the processing

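The count of Spata and Tex genes past limma's F test, 29, ranged from 8 to 33 when 1 array was left out and was 0 with VIII-IX sample 2 and IX-XI sample 2 both left out. The part that the smaller number of arrays has in this was not tested. With 1 array left out, the genes higher and lower in XII-I ranged from 0 to 9 and from 0 to 20, in II-IV from 0 to 0 and from 0 to 5, in IV-VI from 0 to 3 and from 0 to 10, in VII from 0 to 2 and from 0 to 3, in VIII-IX from 0 to 14 and from 0 to 3, and in IX-XI from 0 to 3 and from 0 to 1. With both of those arrays left out, the counts in XII-I, VIII-IX and IX-XI were all 0. With array quality weights (shares of all genes in parentheses), 0 (1.9%) were higher and 8 (0.872%) lower in XII-I, 8 (7.55%) higher and 11 (7.67%) lower in IV-VI, 1 (0.953%) higher and 0 (0.983%) lower in VIII-IX, and 8 (6.25%) higher and 4 (5.93%) lower in IX-XI, so that IV-VI, not XII-I, had the most calls. Both arrays of a group got the same weight, namely 1.93 in IV-VI, 1.6 in IX-XI, 0.94 in VII, 0.72 in XII-I and 0.69 in II-IV and VIII-IX. These weights therefore set groups apart and did not rate single arrays. With the replicate block, 5 (2.2%) were lower in II-IV, 1 (4.72%) lower in VIII-IX and 4 (3.47%) higher in IX-XI. Repeated quantile normalization gave 2 (2.42%) higher and 0 (1.99%) lower in IX-XI. The cause of these shifts was not tested.

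The replicate block left 26 genes past the F test (20.8% of all genes). The numbers do not pair the samples by the labels: the correlation of sample 1 minus sample 2 between groups, over all genes, ran from -0.35 to 0.54 over 15 pairs of groups. Merging VIII-IX with IX-XI gave 33 genes past the F test (25.8% of all genes), array quality weights 33 (23.2%), the dim filter 31 of the 62 it kept (29.6%), repeated quantile normalization 30 (21.5%) and the mean of probe sets 28 (19.8%). No called difference of a single gene changed sign in any setting. Over the 12 settings with 1 array left out, 212 calls of single-gene differences were kept and 184 were lost.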
